A study of Mus musculus with 192 samples.

Results

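The 10 genes described here are markers of the osteoclast, the cell that dissolves bone: Ctsk, Acp5, Mmp9, Calcr, Ocstamp, Dcstamp, Oscar, Atp6v0d2, Car2 and Tnfrsf11a. They were taken by gene name from the 54752 genes of the deposited table, and all 10 were found. Their levels were followed in temporal bone (TpB), the bone that encloses the inner ear, and in mandibular bone (MdB), the lower jaw. The other 7 tissues of the series serve as a reference: the cerebrum (Cbr), the kidney (Kid), the thymus (Thy), the liver (Liv), the spleen (Spl), white fat of the epididymis (eWAT) and brown fat from between the shoulder blades (iBAT).

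RNA was sequenced from male mice on a C57BL/6J background (C57BL/6 in the labels), labelled as 12 weeks old, in 4 groups. Wild-type (WT) mice and Nrf2-KO mice were either flown to the International Space Station for a month and dissected after their return (FL_WT, FL_KO), or kept on the ground in the same type of cage (GC_WT, GC_KO). Every mouse was housed alone. Nrf2-KO mice carry the germline Nfe2l2 tm1Ymk allele in all tissues and lack working Nrf2, the transcription factor that switches on antioxidant and detoxifying genes, so an effect that arises in osteoclasts and one that arises elsewhere in the body cannot be told apart. Nrf2-KO mice with an intrahepatic shunt had been screened out. The ground experiment was run later, and the flight mice also went through launch, re-entry and transport, so these differences and flight itself cannot be told apart.

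Flight mouse 04, an Nrf2-KO mouse that the study left out, was left out here too. TpB then had 6 GC_WT, 6 FL_WT, 6 GC_KO and 5 FL_KO mice, and MdB had 3, 3, 3 and 2. A library held 13.5 to 15.1 M expected counts in TpB and 14.3 to 14.7 M in MdB. Nfe2l2, which encodes Nrf2, was at 55.5 to 95.05 TPM (a level scaled for transcript length and library total) in WT and at 18.32 to 36.09 TPM in Nrf2-KO libraries of TpB, and at 89.32 to 108.84 against 30.3 to 37.51 TPM in MdB. No library went against its genotype label. The labels put TpB libraries in 2 number ranges, here called the first library set (mice 01 to 06) and the second (mice 07 to 12).

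Osteoclasts form when monocyte precursors that carry RANK, the product of Tnfrsf11a, meet RANK ligand from osteoblast-lineage cells together with M-CSF. Oscar encodes an immunoglobulin-like receptor that adds a costimulatory signal, and Calcr encodes the receptor through which calcitonin halts resorption. Dcstamp and Ocstamp encode membrane proteins needed for the fusion of precursors into multinucleated cells. The mature cell seals off a patch of bone, and there Car2 (carbonic anhydrase 2) supplies protons, the vacuolar ATPase with its d2 subunit (Atp6v0d2) pumps them, cathepsin K (Ctsk) cuts collagen, Mmp9 (gelatinase B) cuts denatured collagen, and Acp5 (tartrate-resistant acid phosphatase) is the classical stain of the cell. Several of these genes have other known sources: erythroid cells hold much carbonic anhydrase 2, neutrophils store gelatinase B, and macrophages make Acp5. The samples were bulk tissue, in which fewer cells of a type and less RNA per cell cannot be told apart.

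All 10 genes are annotated as protein coding on GRCm38. Ctsk lies at chr3:95499256-95509362 on the plus strand, Mmp9 at chr2:164940780-164955850 (plus), Ocstamp at chr2:165393760-165400405 (minus), Dcstamp at chr15:39745930-39760938 (plus), Oscar at chr7:3609813-3616157 (minus), Atp6v0d2 at chr4:19876841-19922605 (minus), Car2 at chr3:14886273-14900770 (plus) and Tnfrsf11a at chr1:105780718-105847981 (plus). None of these 8 overlaps another annotated gene. Acp5, at chr9:22126727-22135711 (minus), shares its locus with the noncoding 6530413G14Rik on the opposite strand. Reads of the latter pair can be told apart only if the strand was used in counting, which the sources used here do not state. Calcr, at chr6:3685680-3764714 (minus), holds the microRNA genes Mir653 and Mir489 on its own strand.

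RefSeq promoters, here 250 bases before to 50 bases after a start site on GRCm38.p6, were matched for 5 of the 10 genes (Tnfrsf11a, Ctsk, Calcr, Oscar and Acp5, with 8 promoters in all). Mmp9, Ocstamp, Dcstamp, Atp6v0d2 and Car2 were not matched. The 3 promoters below are the ones that held any of the letters searched, and they belong to a costimulatory receptor, a protease and a phosphatase whose levels are compared between the bones further on. Capitals mark matches, on either strand, to TGGAAA (the core of sites for NFAT, whose member NFATc1 drives osteoclast formation), GAGGAA (PU.1), CATGTG (Mitf) and TGACNNNGC (Nrf2 with a small Maf partner). No match overlapped another.

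Oscar (chr7:3616108-3616407, minus strand): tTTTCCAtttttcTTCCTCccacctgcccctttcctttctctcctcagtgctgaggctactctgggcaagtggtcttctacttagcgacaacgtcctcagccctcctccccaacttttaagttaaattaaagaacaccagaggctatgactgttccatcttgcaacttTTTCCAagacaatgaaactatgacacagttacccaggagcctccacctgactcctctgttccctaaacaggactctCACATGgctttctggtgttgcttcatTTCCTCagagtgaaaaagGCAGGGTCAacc
Ctsk (chr3:95498960-95499259, plus strand): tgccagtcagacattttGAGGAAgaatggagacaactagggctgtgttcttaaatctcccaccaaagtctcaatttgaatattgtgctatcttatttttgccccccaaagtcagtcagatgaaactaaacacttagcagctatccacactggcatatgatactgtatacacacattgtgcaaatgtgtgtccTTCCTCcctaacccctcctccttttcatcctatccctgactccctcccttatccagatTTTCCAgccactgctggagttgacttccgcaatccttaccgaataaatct
Acp5 (chr9:22130549-22130848, minus strand): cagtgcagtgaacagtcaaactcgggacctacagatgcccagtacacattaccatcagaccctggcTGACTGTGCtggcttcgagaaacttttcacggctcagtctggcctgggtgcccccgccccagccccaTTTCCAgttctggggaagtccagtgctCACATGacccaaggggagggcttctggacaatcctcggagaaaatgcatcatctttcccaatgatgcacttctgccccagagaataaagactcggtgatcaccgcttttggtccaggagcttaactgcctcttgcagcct

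The Oscar window held 2 matches to the NFAT letters, 2 to those of PU.1, 1 to those of Mitf and 1 to those of Nrf2. The Ctsk window held 1 for NFAT and 2 for PU.1, and the Acp5 window 1 each for NFAT, Mitf and Nrf2. Over the 8 promoters, the NFAT letters were present in 3, those of PU.1 in 2, of Mitf in 2 and of Nrf2 in 2. Neither TGANTCA (AP-1) nor the second Mitf motif, CACGTG, was found in any of the 8. Of 32851 RefSeq promoters of the same length, 21.4% held the NFAT letters, 28.3% those of PU.1, 14.2% and 7.15% the first and second of Mitf, 12.4% those of Nrf2 and 7.81% those of AP-1. Matches this short are a description of letters in a window and not sites shown to be bound.

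The larger contrast in these genes lay between the bones. In the 11 mice that gave both, 9 of the 10 genes were lower in MdB than in TpB in all 11 animals, as were 35.6% of all genes tested between the bones. Ctsk was the exception and was nearly as high in the jaw as in the temporal bone. The comparison was made within mice, with the mouse as a block in an edgeR quasi-likelihood fit over 16539 genes, of which 77.7% were called at an adjusted p under 0.05 and 38.9% were called lower in MdB. Of the 7 osteoclast genes with enough counts to be tested, 6 were called, all lower in MdB, and their median log2 fold change was −2.07, against 0.01 over all genes tested. This count has to be read against a background in which most genes differ between the bones.

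Acp5 ranged from 83.58 to 321.42 TPM in TpB (median 133.32) and from 7.75 to 20.2 TPM in MdB (median 13.59), and the median within-mouse ratio of TpB over MdB was 13.3. The fitted log2 difference was −3.20 (SE 0.26, adjusted p = 1.27e-07). Mmp9 was at 32.96 to 159.98 TPM (median 65.1) in TpB against 3.45 to 7.73 TPM (median 5.54) in MdB, a log2 difference of −3.41 (SE 0.31, adjusted p = 3.06e-07). For both the protease and the phosphatase, the lowest temporal bone was above the highest jaw.

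The d2 subunit of the proton pump showed the greatest fitted gap of the 7 genes tested. Atp6v0d2 was at 5.99 to 29.26 TPM (median 11.56) in TpB and at 0.26 to 2.01 TPM (median 0.78) in MdB, where a library held 5 to 41 of its counts, with a log2 difference of −3.77 (SE 0.42, adjusted p = 2.64e-06). Car2, the proton source, was at 337.67 to 875.27 TPM (median 609.37) and 89.74 to 135.0 TPM (median 122.93), with a log2 difference of −1.90 (SE 0.18, adjusted p = 4.78e-07). The ranges of neither gene overlapped between the bones, and Car2 stayed abundant in the jaw.

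The receptors followed. Tnfrsf11a was at 1.94 to 5.51 TPM (median 3.4) in TpB and 0.37 to 0.89 TPM (median 0.7) in MdB, a log2 difference of −2.07 (SE 0.18, adjusted p = 1.63e-07). Oscar was at 2.17 to 9.13 TPM (median 3.08) and 0.48 to 1.51 TPM (median 0.95), a log2 difference of −1.67 (SE 0.27, adjusted p = 8.22e-05). Again no jaw reached the level of any temporal bone. For these receptors, as for Acp5, Mmp9, Atp6v0d2 and Car2, the share of all genes with ranges that separate the bones was not counted. The within-mouse ratio for Oscar ran from 1.78 to 19.0, so the size of its gap varied widely among animals.

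Calcr and both fusion genes did not pass the filter on low counts. Over the 11 mice, Calcr had 236 counts in TpB and 11 in MdB, Ocstamp 273 and 35, and Dcstamp 233 and 4. A jaw library held 0 to 3 counts of Calcr, 0 to 7 of Ocstamp and 0 to 2 of Dcstamp. Dcstamp was at 0 in 8 of 11 jaws, Calcr in 4 and Ocstamp in 3, and at this depth a count of 0 allows a share of up to 0.204 to 0.210 CPM (3 counts of a library's total, counting error only). With no filter on low counts these 3 genes were called lower as well, and 9 of 10 members were then called.

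Ctsk stood apart. Its level was 73.62 to 295.98 TPM (median 111.45) in TpB and 83.32 to 119.82 TPM (median 96.39) in MdB, with 1005 to 1423 counts in a jaw library. It was lower in the jaw in 9 of 11 mice, by a log2 difference of −0.16 (SE 0.21, adjusted p = 0.488), which was not called. Its fitted difference lay between −0.48 and 0.15 under the alternatives, with the positive value from the 6 ground mice alone. With limma on log2(TPM + 1) the difference was −0.48 (adjusted p = 0.0273), on a scale where the median of all genes was itself −0.27. The ratio of Ctsk to the other members therefore differed between the bones, as the plot of both bones by mouse shows.

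**Figure D1:**
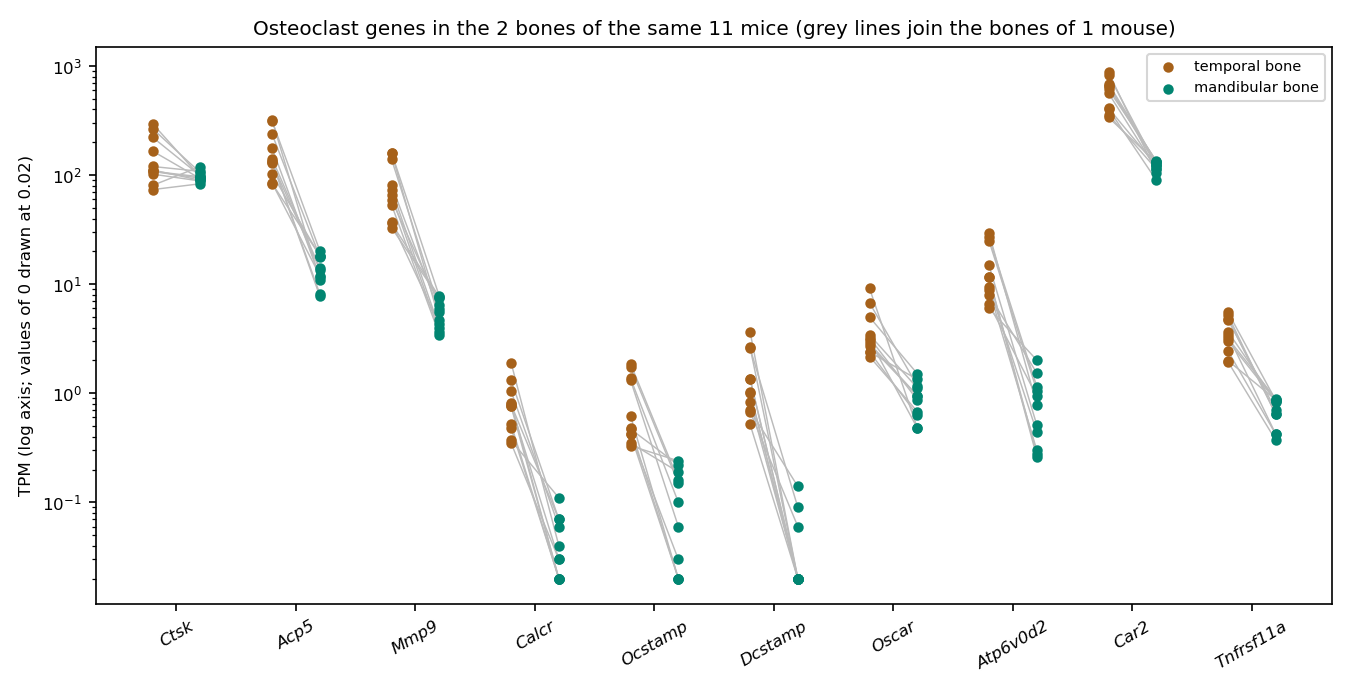
TPM of the 10 osteoclast genes (log axis) in temporal bone (brown) and mandibular bone (green) of the same 11 mice, with a grey line joining the bones of a mouse and values of 0 drawn at 0.02. For 9 genes every line falls from temporal bone to mandible, whereas Ctsk holds at 73.62 to 295.98 against 83.32 to 119.82 TPM.

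The wider osteoclast pathway gave calls in both directions. Of 72 further genes on lists of ligands, coreceptors, transcription factors, kinases, acid secretion, adhesion and proteases, 69 were tested. Of these, 32 were called higher and 27 lower in MdB, while of all 16539 genes tested 6419 were called higher and 6438 lower. All 4 tested coreceptors and adaptors were lower, namely Csf1r (the M-CSF receptor, log2 difference −0.89), Fcer1g (−1.43), Tyrobp (−1.65) and Trem2 (−0.95). Within the acid secretion list, by contrast, 13 of 22 were called higher and 3 lower. The proton pump subunits Atp6v1g1 (1.14) and Atp6v1d (0.91) and the anion exchanger Slc4a2 (1.16) were higher, while Snx10, a vesicle-trafficking protein, was lower (−0.95).

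Among the adhesion genes, 3 were higher and 4 lower of 8. Itgb3, the integrin subunit of the sealing zone, was at −2.35 and Cd47 at −1.16, against 1.23 for Itgav and 3.23 for Cd44. Of 10 transcriptional activators, 3 were higher and 5 lower, with Nfatc1, the master factor, at −0.75 (adjusted p = 0.000575), Mitf at −1.28, Spi1 (PU.1) at −2.41, Fosl2 at 1.57 and Prdm1 at 2.18. Of the 3 repressors reported here, Id2 was called higher (0.74), and Bcl6 (−1.40) and Irf8 (−2.46) were called lower. These transcription factors are also made by other blood and bone cells.

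The kinase list had 5 genes higher and 5 lower of 10, with Src at 0.73 and the immune-receptor signalling proteins Syk at −2.96, Btk at −3.90 and Plcg2 at −2.41. For the ligands and the decoy receptor, Csf1 (0.44) was higher while Il34 (−4.47) and Tnfrsf11b, the decoy receptor for RANK ligand, were lower (−1.76). RANK ligand itself, Tnfsf11, did not pass the filter. Of 8 proteases and coupling genes 5 were higher and 2 lower, with Mmp14 (3.35), Ctsl (0.88) and Sema4d (0.75) higher and the inhibitor Cst3 lower (−0.74). Tcirg1, a pump subunit of the osteoclast, was at −0.37 (adjusted p = 0.0631) and the chloride exchanger Clcn7 at −0.02 (adjusted p = 0.688), neither of them called.

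The cell makeup of the bones also differed by marker lists. Summed over 7 tooth genes, TPM was 0 to 127.9 in TpB and 104782 to 215312 in MdB, and over 13 osteoblast and osteocyte genes 1886 to 5102 against 54687 to 87401. In the other direction, 9 neutrophil genes summed to 871 to 12838 TPM in TpB and 1.78 to 22.5 in MdB, 10 erythroid genes to 16355 to 113595 and 308 to 1548, 10 macrophage and monocyte genes to 471 to 13035 and 198 to 353, and 5 B cell genes to 81.2 to 883 and 6.17 to 26.1. The neural (1603 to 7151 against 10.3 to 22.5), muscle (12.4 to 27250 against 97.3 to 1073), cartilage (69.1 to 187 against 2.1 to 4.84) and inner ear (880 to 4091 against 39.4 to 73.2) lists were also higher in TpB by their medians. Tectb, an inner ear gene, was at 0 in every jaw library, whereas none of the other markers was at 0 throughout either bone. TPM of a library sums to a fixed total, and the part of these other transcripts in the lower values of the members was not tested.

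Whether the osteoclast genes differed with flight was first asked in TpB. In WT mice 9 of the 10 genes lay above 0 in the fitted difference between FL_WT and GC_WT, with a median log2 fold change of 0.56 against 0.01 over all genes, yet none was called after adjustment over all 18178 genes tested (0% called). At an unadjusted p under 0.05, 4 of the 10 were higher in flight (Ctsk, Ocstamp, Oscar and Atp6v0d2) and none lower, against 1.2% of all genes that were higher at this level. DESeq2 called 11 genes in all and none of the 10.

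Oscar, the costimulatory receptor, was at 2.17 to 4.21 TPM (median 2.97) in GC_WT and at 4.99, 6.74, 9.13, 3.73, 6.69 and 4.79 TPM in FL_WT mice 03, 05, 06, 07, 08 and 10. Only FL_WT mouse 07 fell below the highest ground mouse. The group means were 2.98 ± 0.717 and 6.01 ± 1.92 TPM (SD, n = 6 each), with a log2 fold change of 0.82 (SE 0.23, edgeR adjusted p = 0.836). Within the first library set the value was 0.86 and within the second 0.73.

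Ocstamp, of the fusion machinery, was at 0.31 to 0.85 TPM (median 0.45) in GC_WT and at 1.86, 1.37, 1.73, 0.73, 0.92 and 0.7 TPM in the FL_WT mice in the same order, from 9 to 24 and 17 to 54 counts. Mouse GC05, at 0.85, overlapped FL_WT mice 07 and 10, and the next ground mice were at 0.48. The log2 fold change was 1.15 (SE 0.37, edgeR adjusted p = 0.915), or 1.23 and 0.97 within the library sets. Dcstamp, its partner, rested on 8 to 54 counts and ranged from 0.68 to 1.89 TPM in GC_WT and from 1.3 to 3.67 in FL_WT (log2 fold change 0.69, SE 0.37).

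The resorption genes spread more widely among flight mice. Ctsk was at 73.62 to 159.4 TPM (median 114.06) in GC_WT and at 222.28, 266.39, 295.98, 108.66, 201.97 and 137.17 TPM in FL_WT, so 4 flight mice were above every ground mouse and 2 lay within their range. Its log2 fold change was 0.64 (SE 0.27), with 0.77 in the first library set and 0.40 in the second. Atp6v0d2 was at 6.56 to 16.08 TPM (median 10.81) in GC_WT and at 24.88, 26.79, 29.26, 10.89, 39.84 and 12.91 TPM in FL_WT, with the same 2 mice, 07 and 10, inside the ground range (log2 fold change 0.87, SE 0.36). Acp5 (84.79 to 188.04 against 102.07 to 321.42 TPM, log2 fold change 0.46, SE 0.30) and Mmp9 (36.85 to 95.86 against 55.35 to 159.98 TPM, log2 fold change 0.49, SE 0.37) overlapped between the groups in the same way.

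RANK, the calcitonin receptor and carbonic anhydrase also overlapped between the groups. Tnfrsf11a was at 1.99 to 3.18 TPM in GC_WT and 2.53 to 5.51 TPM in FL_WT, a log2 fold change of 0.41 (SE 0.23) that was 0.77 in the first library set and −0.06 in the second. Calcr was at 0.26 to 0.82 TPM and 0.3 to 1.91 TPM (log2 fold change 0.48, SE 0.49), on 7 to 53 counts. Car2 alone had a fitted value under 0, at −0.28 (SE 0.36), with 337.67 to 1031.23 TPM in GC_WT and 384.52 to 831.18 TPM in FL_WT.

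An exact two-sided permutation test on log2(TPM + 1), 6 against 6 mice and gene by gene, gave Oscar a difference of 0.79 (p = 0.00433), Ocstamp 0.56 (p = 0.00649), Ctsk 0.78 (p = 0.0195), Tnfrsf11a 0.44 (p = 0.0238), Atp6v0d2 0.94 (p = 0.0260) and Dcstamp 0.52 (p = 0.0390). Acp5 (p = 0.0801), Mmp9 (p = 0.0823), Calcr (p = 0.342) and Car2 (0.05, p = 0.892) were above 0.05 by the same exact test. These p-values are unadjusted for the 10 genes. They are on the TPM scale, where the median of all genes was itself 0.17 higher in FL_WT, and Car2 took a sign there that it did not have in the fit with TMM scaling. The exact test was not run over all genes. With limma on log2(TPM + 1), 2223 of all 18178 genes were higher and 135 lower at an unadjusted p under 0.05. By that fit 7 of the 10 members were higher at this level.

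The same mice were high for most of the members. FL_WT mice 03, 05 and 06 were each above the highest GC_WT mouse for 9 of the 10 genes, as they were for 21.8%, 19% and 26.2% of all genes tested. Mouse 08 was above it for 7 members and 30.1% of all genes, mouse 10 for 2 and 26.6%, and mouse 07 for none of the members and 34.7% of all genes. The 3 mice with 9 members above were all in the first library set, and the others in the second. Of the FL_KO mice, compared with GC_KO, mouse 09 was above for 9 members (18.2% of all genes), mouse 02 for 6 (8.51%), mouse 12 for 6 (15.7%), mouse 11 for 5 (21.6%) and mouse 01 for none (24.5%). None of the 10 genes had flight and ground ranges free of overlap in TpB, which 1.54% of all genes had in WT and 0.176% in Nrf2-KO mice.

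In Nrf2-KO mice the flight differences in TpB had log2 fold changes from −0.21 to 0.79, a median of 0.41 against 0.03 over all genes, and 8 of 10 above 0. None was called (0% of all genes), and none reached an unadjusted p of 0.05, where 1.51% of all genes were higher in flight. DESeq2 called 6 genes in all and none of the 10. Mmp9 came closest, at 32.96 to 62.05 TPM in GC_KO and 36.05, 80.65, 179.06, 74.34 and 105.28 TPM in FL_KO mice 01, 02, 09, 11 and 12 (log2 fold change 0.79, SE 0.38). Only mouse 01 was inside the ground range.

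Ocstamp was at 0.32 to 0.71 TPM in GC_KO and 0.33, 1.32, 1.16, 0.81 and 0.85 TPM in FL_KO in the same order (log2 fold change 0.75, SE 0.39). Oscar was at 2.39 to 3.45 TPM and 3.43, 3.22, 4.08, 5.47 and 4.9 TPM (log2 fold change 0.42, SE 0.24). Ctsk was at 90.57 to 122.73 and 80.44, 166.13, 197.91, 132.95 and 135.5 TPM (log2 fold change 0.36, SE 0.29). Mouse 01 stood within the ground range for Ocstamp and Oscar, as did mouse 02 for Oscar, and for Ctsk mouse 01 was below all 6 ground mice. Tnfrsf11a was at −0.03 (SE 0.24) and Car2 at −0.21 (SE 0.38).

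Averaged over both genotypes, 6 of the 10 genes had an unadjusted p under 0.05, all higher in flight, against 2.16% of all genes, and none was called (0% of all genes). Oscar was at 0.62 (SE 0.16, edgeR adjusted p = 0.561), Ocstamp at 0.95 (SE 0.27, adjusted p = 0.561), Ctsk at 0.50 (SE 0.20, adjusted p = 0.886), Mmp9 at 0.64 (SE 0.27), Dcstamp at 0.64 (SE 0.27) and Atp6v0d2 at 0.62 (SE 0.26). DESeq2 called 25 genes in all and none of the 10. The count of 6 came down to 2 without FL_KO mouse 09, and that of 4 in WT mice came down to 2 without GC_WT mouse 08 and up to 6 without FL_WT mouse 07. In the second library set alone the counts for the averaged and the WT comparison were 2 and 2 of 9 genes tested, against 0.682% and 0.676% of all genes, and in the first they were 2 and 3 of 10, against 1.4% and 1.32%.

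**Figure D2:**
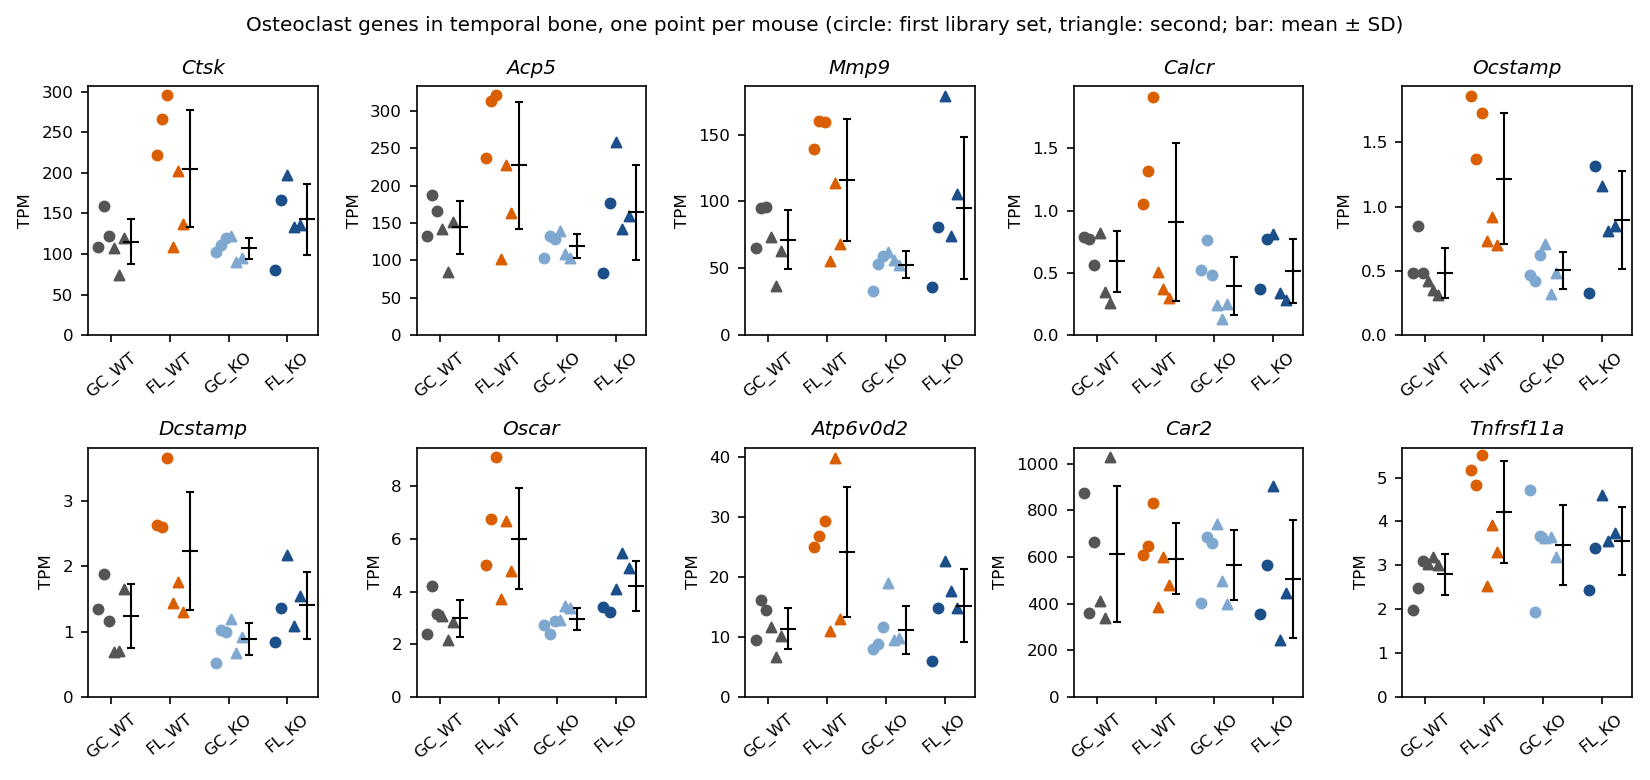
TPM of each osteoclast gene in temporal bone, 1 point per mouse, for GC_WT, FL_WT, GC_KO and FL_KO, with circles for the first library set, triangles for the second and black bars for the mean ± SD. The FL_WT points of Oscar lie at 3.73 to 9.13 TPM above most of the GC_WT points at 2.17 to 4.21, whereas those of Car2 lie within the range of the ground mice.

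Other genes of the pathway also lay mostly above 0 in TpB. Of the 71 tested, 61 had a fitted value above 0 in FL_WT against GC_WT, where the median over all genes was 0.01. None was called (0% of all genes). At an unadjusted p under 0.05, 4 were higher, against 1.2% of all genes. They are named here after their values were seen: the sodium-proton antiporter Slc9b2 (0.92, SE 0.22), Src (0.27), Gab2 (0.23) and Clcn7 (0.20). The regulators fixed for naming were at 0.25 for Nfatc1, 0.54 for Tnfsf11, 0.32 for Tnfrsf11b, 0.32 for Csf1r, 0.35 for Tcirg1 and 0.69 for Itgb3, with unadjusted p-values from 0.112 to 0.348 in the edgeR fit. By list the medians were 0.33 for ligands and decoy, 0.32 for coreceptors, 0.21 for adhesion, 0.16 for kinases, 0.13 for proteases, 0.10 for activators, 0.07 for acid secretion and 0.05 for repressors. All of these medians were below the 0.56 of the 10 members.

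In FL_KO against GC_KO, 58 of the 71 pathway genes were above 0, and none was called. At an unadjusted p under 0.05 there was 1, Itgb3 (1.05, SE 0.44), against 1.51% of all genes that were higher. Averaged over genotypes, 60 of 71 were above 0, and none was called. At an unadjusted p under 0.05, 5 were higher, against 2.16% of all genes. Again they are named after their values were seen: Slc9b2 (0.58), Src (0.24), Itgb3 (0.87), Fermt3 (0.65) and Gab2 (0.16). RANK ligand itself, Tnfsf11, was at 0.54 in WT and 0.01 in Nrf2-KO mice (SE 0.34 and 0.35).

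None of the marker genes of other cells was called for flight in TpB, and the part of those cells in the values of the members was not tested. Between FL_WT and GC_WT the median log2 fold change was 0.18 for macrophage and monocyte, 0.10 for neutrophil, 0.30 for osteoblast and osteocyte, 1.11 for the 5 tested tooth genes, 0.22 for inner ear, 0.11 for cartilage, 0.01 for neural, −0.30 for B cell, −0.65 for erythroid and −0.90 for skeletal muscle genes. Between FL_KO and GC_KO it was 1.01 for neutrophil genes, with 3 of 9 higher at an unadjusted p under 0.05, 0.72 for B cell and 0.37 for macrophage and monocyte genes, and −0.27 for erythroid, −0.21 for muscle, −0.26 for inner ear, −0.32 for cartilage, −0.14 for neural, 0.02 for osteoblast and 0.07 for tooth genes. The muscle sum ran from 12.4 to 27250 TPM among GC_KO mice alone, so the tissue taken with the bone varied between libraries.

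In MdB no osteoclast gene was called for flight. Of 16359 genes tested none was called between FL_WT and GC_WT (0%) or between FL_KO and GC_KO (0%), nor was any called when averaged over genotypes (0%). DESeq2 called 61, 9 and 25 genes in these comparisons, and none of the 7 members tested. The WT log2 fold changes ran from −0.37 to 0.79, with a median of 0.46 against −0.01 over all genes and 6 of 7 above 0, and none of the 7 had an unadjusted p under 0.05.

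Mmp9 was at 3.63, 4.0 and 4.27 TPM in GC_WT and at 5.95, 7.73 and 4.71 TPM in FL_WT (log2 fold change 0.57, SE 0.30). Ctsk was at 96.39, 93.67 and 83.32 TPM in GC_WT and 98.43, 105.0 and 96.4 TPM in FL_WT, with a log2 fold change of 0.06 (SE 0.11). The ranges of these 2 of the 7 genes did not overlap, though those of Ctsk nearly touched at 96.39 and 96.4 TPM, where 13.9% of all genes tested had ranges free of overlap. With 3 mice against 3, an exact two-sided permutation test cannot go below p = 0.10, so no exact p is given.

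Oscar was at 0.63, 0.48 and 0.68 TPM in GC_WT and 1.51, 1.17 and 0.48 TPM in FL_WT, on 6 to 22 counts (log2 fold change 0.79, SE 0.46). Atp6v0d2 was at 0.44, 0.28 and 0.94 TPM against 1.06, 1.15 and 0.78 TPM (0.77, SE 0.74), and Acp5 at 8.13, 14.01 and 11.98 TPM against 17.82, 20.2 and 10.88 TPM (0.46, SE 0.36). In each of these 3 genes the groups overlapped. Car2 was at 105.44, 121.52 and 131.17 against 135.0, 132.5 and 123.28 TPM (0.05, SE 0.14).

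Tnfrsf11a went the other way in the jaw, at 0.87, 0.85 and 0.89 TPM in GC_WT and 0.64, 0.64 and 0.86 TPM in FL_WT (log2 fold change −0.37, SE 0.27), and at 0.7, 0.37 and 0.84 TPM in GC_KO and 0.42 and 0.42 TPM in FL_KO (−0.61, SE 0.33). Averaged over genotypes it was at −0.49 (SE 0.22, edgeR adjusted p = 0.737). This rests on 15 to 38 counts a library. In FL_KO against GC_KO the 7 members ran from −0.61 to 0.75, with a median of 0.14, and 4 were above 0.

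None of the marker genes of other cells was called between the jaws of WT mice either, and the part of those cells in the values of the members was not tested. The medians between FL_WT and GC_WT were −1.88 for erythroid genes, with 6 of 7 lower at an unadjusted p under 0.05, −2.03 for neutrophil genes (3 of 3) and −1.96 for muscle genes (7 of 8), and 4 of 12 osteoblast and osteocyte genes were higher. Of all 16359 genes, 700 were lower and 718 higher at this level. Of the 69 pathway genes tested in MdB, 43 were above 0 in FL_WT against GC_WT and 34 in FL_KO against GC_KO, and none was called.

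**Figure D3:**
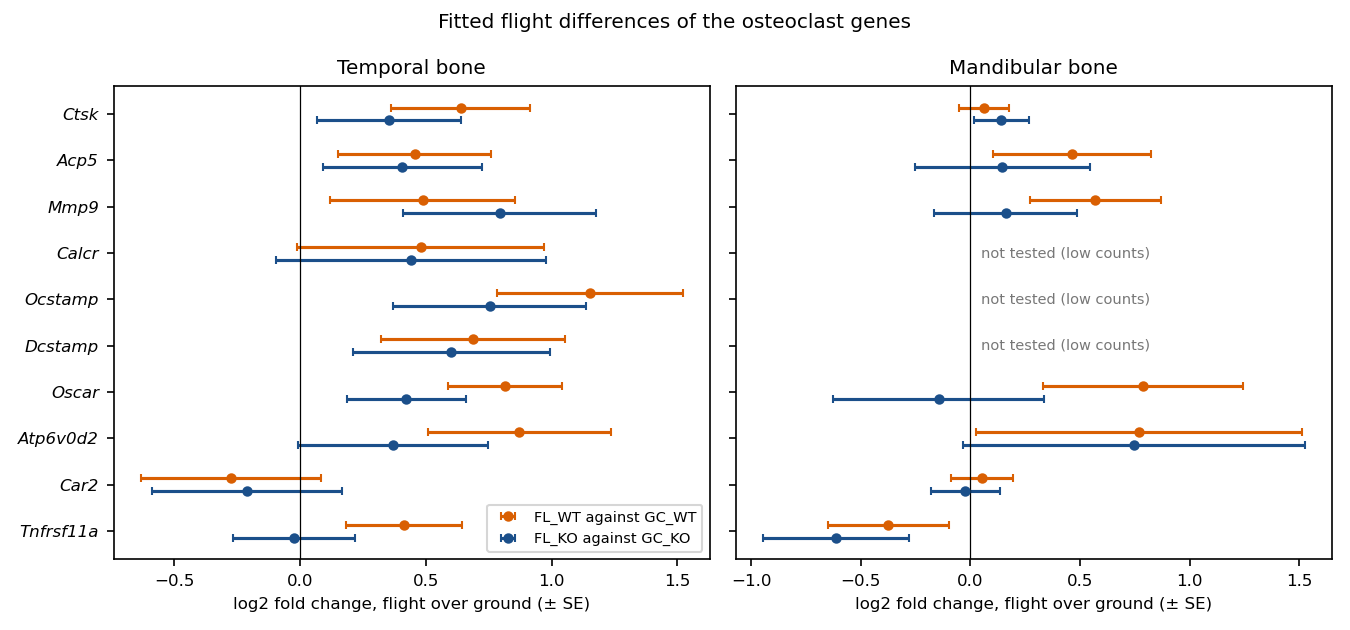
Fitted log2 fold change of flight over ground with its SE for each osteoclast gene, in temporal (left) and mandibular bone (right), for WT (orange) and Nrf2-KO mice (blue). In temporal bone 9 of 10 WT values and 8 of 10 Nrf2-KO values lie above 0, none of them called, and 3 genes could not be tested in the mandible.

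Loss of Nrf2 left the osteoclast genes without a call in either bone. On the ground, GC_KO against GC_WT gave log2 fold changes from −0.75 (Calcr) to 0.23 (Tnfrsf11a) in TpB, with a median of −0.21, 2 of 10 above 0 and a lowest unadjusted p of 0.150, while 0.198% of all genes were called. The exact permutation test, 6 against 6 mice, also gave none of the 10 genes a p under 0.05 (lowest exact p = 0.132, Mmp9). Group means were close for Ctsk (115 ± 27.8 TPM in GC_WT and 107 ± 13.3 in GC_KO, SD, n = 6 each), for Oscar (2.98 ± 0.717 and 2.96 ± 0.403) and for Atp6v0d2 (11.4 ± 3.49 and 11.1 ± 4.03).

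Between the flown groups, FL_KO against FL_WT, the 10 fitted values ran from −0.79 to −0.16, and none was called (0.204% of all genes were). The lowest unadjusted p was that of Oscar (0.0530), at 4.22 ± 0.958 TPM (SD, n = 5) in FL_KO and 6.01 ± 1.92 TPM (n = 6) in FL_WT. Ctsk was at 143 ± 43.6 and 205 ± 72.4 TPM and Atp6v0d2 at 15.2 ± 6.05 and 24.1 ± 10.8 TPM. Within the first library set, with 2 FL_KO and 3 FL_WT mice, the values ran from −1.36 (Dcstamp) to −0.56 (Car2), and 7 of the 10 genes were lower at an unadjusted p under 0.05, against 5.17% of all genes. Within the second they ran from −0.14 (Atp6v0d2) to 0.70 (Mmp9) for the 9 genes tested, and none was lower at this level, against 0.97% of all genes. No member was called in either set, and the difference between the sets was not tested.

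Averaged over flight and ground, Nrf2-KO mice were at −0.77 (SE 0.37) for Calcr and −0.61 (SE 0.27) for Dcstamp in TpB. Their unadjusted p-values in the edgeR fit were 0.0474 and 0.0351, where 325 of all 18178 genes were lower at an unadjusted p under 0.05. The edgeR adjusted p was 0.904 for both, and 0.358% of all genes were called. Whether the flight response differed between the genotypes was tested as an interaction. Its values ran from −0.50 to 0.31 with SEs of 0.33 to 0.77, its lowest unadjusted p was 0.206, and 0% of all genes were called in TpB. The larger flight values in WT mice were therefore not shown to differ from those in Nrf2-KO mice.

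In MdB, GC_KO against GC_WT gave −0.44 to 0.89 with Oscar highest (0.89, SE 0.46), and FL_KO against FL_WT gave −0.68 to 0.38. No member was called, while 0.245% and 0.208% of all genes were. Tnfrsf11a was the only member with an unadjusted p under 0.05 when averaged over flight and ground (−0.56, SE 0.22, edgeR adjusted p = 0.807). Of all 16359 genes, 460 were lower at this unadjusted level, and 0.513% were called. The interaction in MdB ran from −0.93 to 0.08, and 0% of all genes were called.

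How far the 10 genes varied together was described over the 23 TpB mice, by deviations of log2(TPM + 1) from each group's mean. The correlation of each gene with the mean of the other 9 was highest for Acp5 (Pearson r = 0.97, Spearman rho = 0.97) and Ctsk (0.97, 0.96), followed by Mmp9 (0.92, 0.86), Dcstamp (0.84, 0.79), Atp6v0d2 (0.81, 0.75) and Ocstamp (0.80, 0.79). Calcr (0.55, 0.49), Oscar (0.55, 0.48), Tnfrsf11a (0.52, 0.45) and Car2 (0.52, 0.47) followed the rest less closely. The order of the lower values was not the same in both library sets. Car2 was at 0.14 in the first set and 0.72 in the second, and Tnfrsf11a at 0.13 and 0.71, while Dcstamp was at 0.72 and 0.69, Ocstamp at 0.76 and 0.67, Calcr at 0.61 and 0.28 and Oscar at 0.33 and 0.30 (Pearson r, 11 and 12 mice).

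All 45 pairs of members had an r above 0, with a median of 0.60 and a range from 0.005 to 0.98. The median r of a gene with the other 9 was 0.81 in all mice, 0.74 in the first library set and 0.72 in the second. It was 0.68 without FL_WT mouse 07 and FL_KO mouse 01, the 2 mice farthest from the median of the mean, and there Oscar came to 0.37 and Tnfrsf11a to 0.23. These values share libraries and their base composition, and the mice differ in the tissue taken with the bone.

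The same deviations went with the markers of marrow cells. The mean of the 10 genes had an r of 0.83 with the summed neutrophil genes and 0.81 with the B cell genes, 0.59 with erythroid, 0.49 with macrophage and monocyte, 0.45 with osteoblast and osteocyte, 0.36 with cartilage, 0.35 with muscle, 0.35 with tooth, 0.16 with inner ear and −0.62 with neural genes. Gene by gene, Mmp9 was at 0.92 with the neutrophil sum and Car2 at 0.96 with the erythroid sum, against 0.92 and 0.52 with the other members. Ctsk had 0.76 with the neutrophil and 0.77 with the B cell sum. The part of marrow content in the flight values of the members was not tested.

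**Figure D4:**
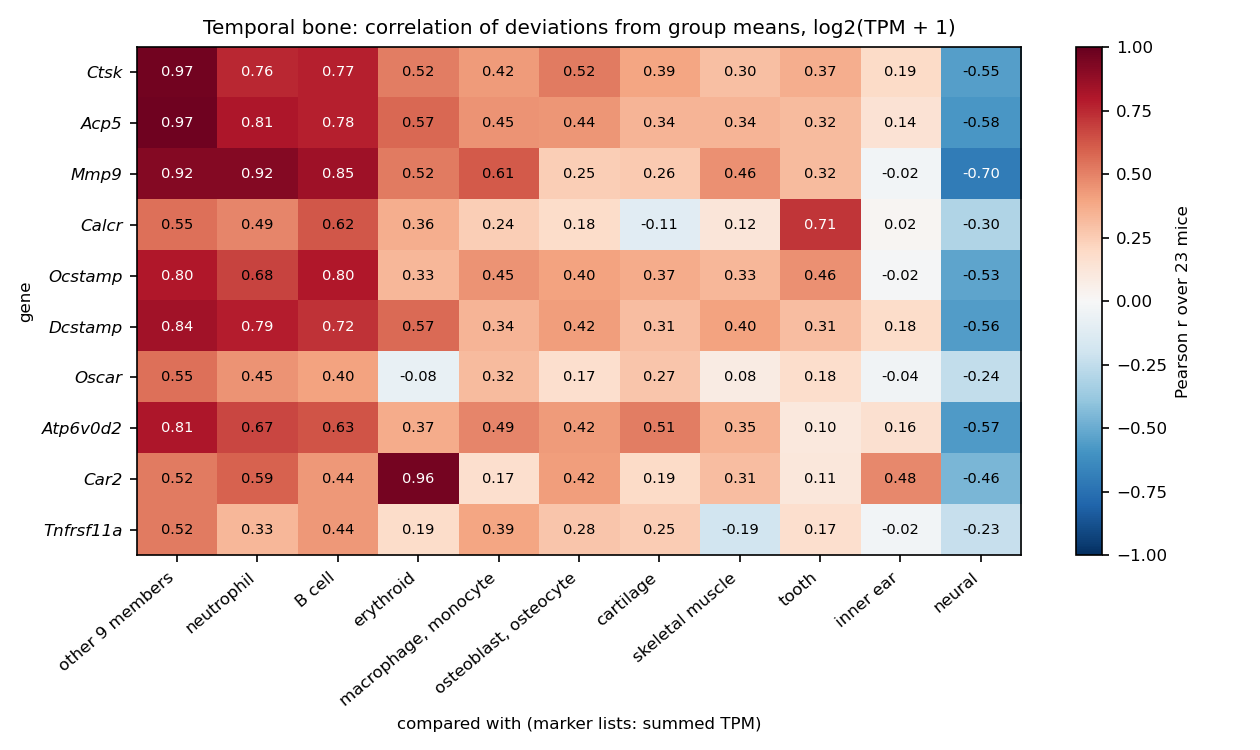
Pearson r over 23 temporal bone libraries (deviations from group means of log2(TPM + 1)) of each osteoclast gene with the mean of the other 9 members, first column, and with the summed TPM of 10 marker lists of other cells. Ctsk and Acp5 reach 0.97 with the other members, while Car2 reaches 0.96 with the erythroid list and Mmp9 0.92 with the neutrophil list.

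A scan took in the 13798 genes, some of them members, that averaged 5 TPM or more in some group. The genes outside the members most like the mean of the 10 members over the 23 mice were Fyb (r = 0.96), Ms4a6c (0.96), Vav1 (0.96), Laptm5 (0.95), F13a1 (0.95), Cd84 (0.95), Fes (0.95), Itgb2 (0.95), Inpp5d (0.94) and Pstpip1 (0.94). Without the same 2 mice their r was between 0.92 and 0.95. Fyb, Vav1, Fes and Inpp5d encode signalling proteins of blood cells, Itgb2 encodes the leukocyte integrin beta chain and F13a1 the A subunit of factor XIII. None of them was on a list fixed here.

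Across the 9 tissues, the 10 genes were not all highest in bone. By the median of GC_WT mice, TpB ranked first for Ctsk, Mmp9, Dcstamp, Oscar and Car2, and for Mmp9, Dcstamp and Car2 its range was also clear of the next tissue. Mmp9 was at 36.85 to 95.86 TPM in TpB and 6.98 to 14.82 TPM in Spl, which came next. Dcstamp was at 0.68 to 1.89 TPM against 0 to 0.28 TPM in eWAT, and Car2 at 337.67 to 1031.23 TPM against 186.61 to 225.51 TPM in Cbr. Dcstamp stood out from a level near 0 in all other tissues.

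Ctsk was the one gene with both bones at the top, with medians of 114.06 TPM in TpB and 93.67 TPM in MdB, which overlapped, and 12.64 TPM (9.07 to 18.0) in eWAT below them. Its remaining medians were 4.31 TPM in Spl, 3.1 in Cbr, 2.93 in Kid, 1.45 in iBAT, 0.935 in Thy and 0.56 in Liv, with neighbours in that order overlapping except Kid and iBAT. Values of Thy come from libraries depleted of ribosomal RNA, while the other tissues were selected for poly(A) RNA. Oscar had a median of 2.97 TPM in TpB that overlapped the 2.79 TPM (2.49 to 3.72) of Cbr, and 0.63 TPM in MdB, with every other tissue at 0.51 TPM or less.

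Acp5 was led by eWAT at a median of 501.92 TPM, then Spl (274.13), TpB (146.22), iBAT (114.78) and Liv (96.03), of which TpB, iBAT and Liv overlapped in turn. MdB was second from the bottom for this gene, at 11.98 TPM, above Cbr at 0.12. Tnfrsf11a was highest in Spl (6.86 TPM), with TpB (3.01), eWAT (2.79), Thy (2.78) and Cbr (2.07) overlapping below it. RANK is also known from dendritic cells and other immune cells.

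Ocstamp was likewise highest in Spl, at a median of 2.10 TPM (1.53 to 2.65) against 0.45 in TpB, whose range overlapped that of Liv (0.295). Atp6v0d2 was highest in Kid at 19.45 TPM (19.17 to 23.04), ahead of TpB at 10.81, and the jaw at 0.44 ranked seventh. Calcr was highest in Cbr, at 1.53 TPM (1.07 to 3.13), then TpB at 0.665, Kid at 0.15 and MdB at 0.03, and its median was 0 in the other 5 tissues. Renal intercalated cells use the d2 subunit and neurons the calcitonin receptor, as is known.

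**Figure D5:**
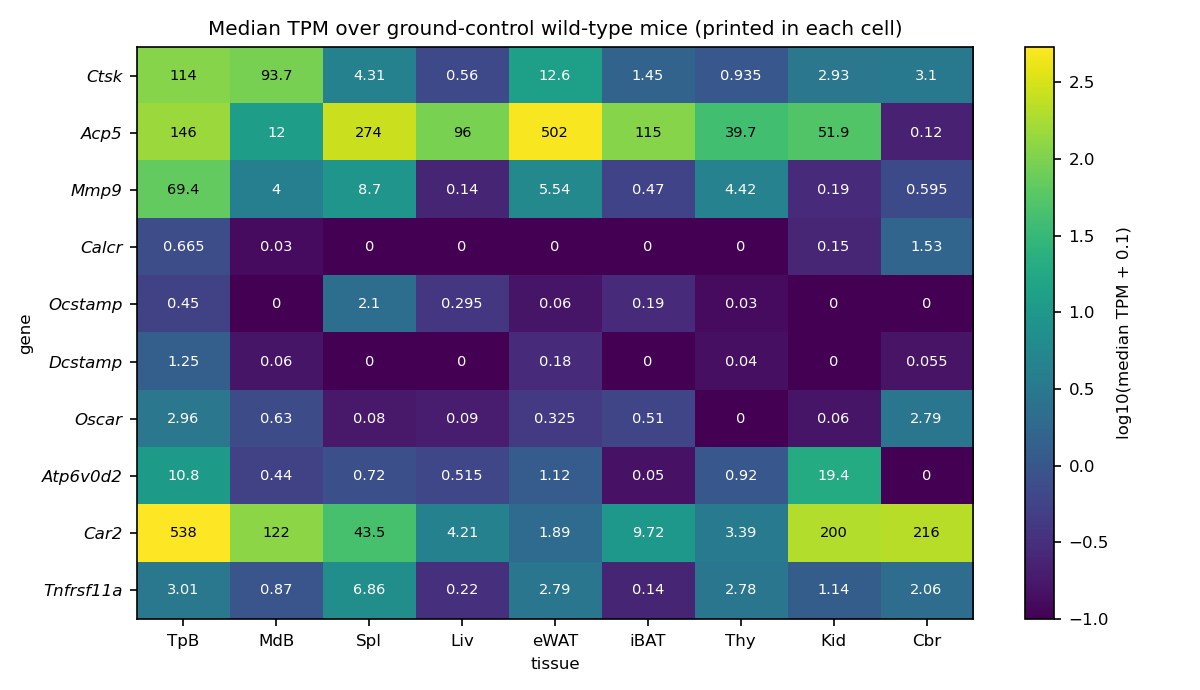
Median TPM over GC_WT mice of each osteoclast gene (rows) in the 9 tissues (columns), printed in each cell and coloured on a log10 scale. Temporal bone holds the highest median of Ctsk, Mmp9, Dcstamp, Oscar and Car2, and the mandible comes near it only for Ctsk (93.67 against 114.06 TPM).

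Outside bone, enough counts for a test were present in 44 of 70 combinations of gene and tissue. In FL_WT against GC_WT, 2 combinations (4.55%) were called, against 8.66% over all genes tested in these tissues. In FL_KO against GC_KO it was 6 (13.6%) against 11.8%, in GC_KO against GC_WT 3 (6.82%) against 2.11%, and in FL_KO against FL_WT 4 (9.09%) against 1.73%. Flight counts were thus near or under the background, and the genotype counts rest on few combinations, 4 of 7 of them Acp5.

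Acp5 was called lower in Nrf2-KO mice in Liv and Kid, flown or not, where 1.61% to 3.64% of all genes were called. In Liv it was at 97.5 ± 6.29 TPM in GC_WT and 76.2 ± 6.33 in GC_KO (SD, n = 6 each, log2 fold change −0.36, SE 0.07, edgeR adjusted p = 0.00244), and at 107 ± 6.58 TPM in FL_WT (n = 6) and 90.1 ± 5.63 in FL_KO (n = 5, −0.33, SE 0.07, adjusted p = 0.00799). In Kid the means were 51.7 ± 1.92 and 40.2 ± 4.09 TPM on the ground (n = 3 each, −0.38, adjusted p = 0.0259) and 47.8 ± 0.318 and 35.9 ± 2.11 TPM in flight (n = 3 each, −0.42, adjusted p = 0.0128). The kidney calls were lost without 5 of the 12 mice on the ground (edgeR adjusted p up to 0.147) and without 2 of them in flight (up to 0.0674). Those in Liv held without each FL_KO mouse, but no other liver mouse was left out. The ground comparison in Liv holds no FL_KO mouse, so this check could not probe it. The ranges of the genotypes did not overlap in any of these 4 comparisons. The share of all genes for which this held was not counted in Liv or Kid. With 3 mice against 3 in MdB, FL_WT against GC_WT, it was 13.9%. In TpB the same gene was at −0.36 (SE 0.30) on the ground, a value of like size with a wider error that was not called. In MdB its means went the other way, at 11.4 TPM in GC_WT and 13.1 TPM in GC_KO (n = 3 each), also not called.

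The other genotype calls were smaller in level. In eWAT, Mmp9 was at 5.64 ± 1.71 TPM in GC_WT and 3.59 ± 1.14 TPM in GC_KO (−0.78, SE 0.20, edgeR adjusted p = 0.0356), with overlapping groups. In Kid, Calcr had 4 to 7 counts in FL_WT and 15 to 21 in FL_KO (1.56, SE 0.33, adjusted p = 0.0298), and in Thy, Tnfrsf11a was at 3.73 ± 0.715 TPM in FL_WT and 4.88 ± 0.381 TPM in FL_KO (0.47, SE 0.12, adjusted p = 0.0287). Calcr in Kid was also lost without 8 of the 12 mice (edgeR adjusted p up to 0.173), and Tnfrsf11a in Thy without 3 of the 5 FL_KO mice (up to 0.0648). None of these 3 held with limma on log2(TPM + 1), where their adjusted p was 0.112, 0.0786 and 0.116, and those of Mmp9 and Tnfrsf11a were also lost with FL04 included (edgeR adjusted p of 0.131 and 0.115).

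Of the flight calls, Car2 in Spl was the largest. It was at 30.26 to 152.49 TPM (median 93.39) in GC_KO and 13.89 to 23.88 TPM (median 19.85) in FL_KO (−2.23, SE 0.41, edgeR adjusted p = 0.00901). The groups did not overlap, though the share of all genes for which this held was not counted. Of all genes, 0.668% were called. In WT spleens Car2 was at 19.37 to 121.96 TPM on the ground and 13.39 to 23.07 TPM in flight, and this difference was not called.

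In Thy of Nrf2-KO mice 3 of the 6 members tested were called, against 38.3% of all genes there, a share near the background. Tnfrsf11a was at 2.24 ± 0.403 TPM in GC_KO (n = 6) and 4.88 ± 0.381 TPM in FL_KO (n = 5, log2 fold change 0.87, SE 0.12, edgeR adjusted p = 7.20e-06), Ctsk at 0.718 ± 0.261 and 1.53 ± 0.214 TPM on 6 to 21 counts (0.80, SE 0.26, adjusted p = 0.0194) and Mmp9 at 3.50 ± 1.04 and 5.77 ± 0.910 TPM (0.49, SE 0.16, adjusted p = 0.0167). For RANK and Ctsk every flown mouse was above every ground mouse, though the share of all genes for which this held was not counted. The call of Mmp9 was lost without FL_KO mouse 12 (edgeR adjusted p = 0.0589). Whether these responses differ from those of WT thymus was tested as an interaction. It gave no call for a member, nor for any other of the 16296 genes tested there.

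In eWAT, Atp6v0d2 was at 1.29 ± 0.411 TPM in GC_WT and 3.56 ± 0.909 TPM in FL_WT (1.36, SE 0.40, edgeR adjusted p = 0.0254) and Acp5 at 527 ± 60.2 and 435 ± 33.9 TPM (−0.37, SE 0.10, adjusted p = 0.0185), while Ctsk was at 16.6 ± 4.33 TPM in GC_KO and 10.2 ± 1.74 TPM in FL_KO (−0.69, SE 0.17, adjusted p = 0.0143). Of all genes 13.3% were called in WT and 7.77% in Nrf2-KO mice of this tissue. With FL04 included, Ctsk was at −0.47 and was not called (edgeR adjusted p = 0.130). Adipose tissue holds macrophages that also make these 3 genes. In iBAT, Acp5 was at 111 ± 19.0 TPM in GC_KO and 113 ± 12.9 TPM in FL_KO, yet its fitted value was −0.41 (SE 0.11, edgeR adjusted p = 0.00706, with 33.6% of all genes called). There the sign depended on the scaling: on log2(TPM + 1) it was 0.04, on a scale where the median of all genes was 0.33 higher in FL_KO.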

How the data were processed

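RNA of 9 tissues was sequenced in 192 libraries, of which the temporal bone libraries of 23 mice and the mandible libraries of 11 were the main material. According to the study's methods and the submitters' processing notes, the authors aligned single reads to mm10 with STAR 2.6.1 and quantified genes with RSEM 1.3.1. Libraries were made with a strand-specific kit, and the strand setting in counting is not given in the sources used here. The deposited values are RSEM expected counts, which are not normalised, and TPM, which the authors' RSEM run scaled by transcript length and library total. The 192 deposited FPKM columns, also made by the authors with RSEM, were not used. Gene positions came from a GENCODE annotation of GRCm38 and promoters from RefSeq.

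Expected counts were rounded and tested in R 4.3.3 with edgeR 4.0.16 (filterByExpr by group, TMM, quasi-likelihood test), in 1 fit per tissue over the 4 groups. The Benjamini-Hochberg adjustment ran over all genes tested in the tissue, with calls made below 0.05. The SE is the log2 fold change divided by the root of F. The bones were compared in the 11 mice that gave both, and the mouse, the same animal in both bones, was the block. Levels between genes and tissues are TPM, and single genes in TpB also had an exact two-sided permutation test on log2(TPM + 1). The alternatives tried were RLE factors, DESeq2 1.42.0, limma 3.58.1 (log2(TPM + 1), or a pseudocount of 0.1), no filter, other sets of samples and, in the bones, leaving out each mouse. In the other tissues only FL_KO mice and, in Kid, mice of all groups were left out. The fits were tested on simulated counts. No pair of libraries from the same tissue and group, without FL04, was as close as sampling noise. Pairs across groups were not compared in this way. The labels tie each library to 1 mouse.

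The members and the gene lists were chosen with earlier results of these data known. Named genes are the 10 members, 7 regulators (Nfatc1, Tnfsf11, Tnfrsf11b, Csf1r, Tcirg1, Clcn7 and Itgb3), up to 4 genes per pathway list and comparison with the smallest adjusted p among those called, and the 10 genes most like the mean of the members. In the flight comparisons of TpB no pathway gene was called. There, pathway genes higher at an unadjusted p under 0.05 were named after their values were seen, outside this rule. Marker lists are given by count, sum and median. One gene of the pathway lists is not reported here.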

Additional observations from a re-analysis of the deposited data

Results flagged for a closer look

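In 3 of the 40 groups of TpB examined (10 genes, 4 groups), 1 mouse lay far from the others by Dixon's test at the 95% level, where chance marks about 1 in 20. Mmp9 was at 32.96 TPM in mouse GC01, the lowest of GC_KO, with the next at 52.7 TPM. Ocstamp was at 0.85 TPM (24 counts) in mouse GC05, the highest of GC_WT, with the next at 0.48 TPM. Atp6v0d2 was at 18.99 TPM in mouse GC09, the highest of GC_KO, with the next at 11.56 TPM. No interaction of flight and genotype was called for a member, over 61 tests in the 9 tissues. In the same edgeR fits 0 of all genes were called for it in any of these tissues.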

How the results depend on the processing

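No alternative called a member for flight or genotype in TpB or MdB, leaving out each mouse included (0 to 0 called). For MdB against TpB, 6 of 7 were called under every alternative but 2, namely no filter on low counts (9 of 10) and limma on log2(TPM + 1) (7 of 7, Ctsk included), and without each mouse in turn the number was 6 to 6. In the other tissues limma on log2(TPM + 1) called 6 in place of 2 for FL_WT against GC_WT and 2 in place of 4 for FL_KO against FL_WT. In these tissues only FL_KO mice and, in Kid, mice of all groups were left out in turn (42 fits). This gave 2 to 2, 5 to 7, 2 to 3 and 2 to 4 calls for FL_WT against GC_WT, FL_KO against GC_KO, GC_KO against GC_WT and FL_KO against FL_WT. The calls for FL_WT against GC_WT were in eWAT, where no mouse of these groups was left out. The lowest value of the last, 2, came without kidney mouse FL_KO 02 or FL_WT 10. Acp5 in iBAT, FL_KO against GC_KO, changed sign with limma on log2(TPM + 1) (log2 difference 0.041). With FL04 included, the FL_KO means in MdB were 0.03 TPM for Dcstamp, 107 for Car2 and 0.433 for Tnfrsf11a, against 0, 114 and 0.42. Median r among the members in TpB was 0.68 to 0.82 over its settings.

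Flight and ground mice of the same number are different animals. Deviations of same-numbered flight and ground libraries correlated at −0.48 to 0.72 in TpB, over 0.1 in 6 of 11 pairs. In MdB they correlated at 0.03 to 0.18, over 0.1 in 2 of 3, so in neither bone were the numbers taken to pair flight with ground mice. With the mouse number as a replicate block, 0 members were called in TpB and 0 in MdB (Nrf2-KO mice only, since WT mice shared fewer than 2 numbers), and 5, 3 and 7 of the 10 had an unadjusted p under 0.05 in TpB for WT, Nrf2-KO and averaged flight, against 4, 0 and 6 without it. Of all genes tested in TpB, 195, 425 and 447 were higher in flight at this level with the block, against 219, 275 and 392 without it. In the other tissues the block gave 2 and 6 calls for flight in WT and Nrf2-KO mice, the same numbers as without it, but Ctsk in Thy of Nrf2-KO mice missed the threshold (edgeR adjusted p = 0.0504). Depth limits Calcr, Ocstamp and Dcstamp in MdB, at 0 to 7 counts a library.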
